A study of Mus musculus with 16 samples.

Results

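Gal, Npy, Nts, Vip, Adcyap1, Ucn and Crh, genes of neuropeptides linked to nerve injury, were followed through every library of the study. These 7 genes were chosen by name from the 53465 genes of the deposited table, and each was found once. They were measured in dorsal root ganglia (DRG), the ganglia that hold the cell bodies of sensory neurons, and in the dorsal section of the lumbar spinal cord, where these neurons end. The SNI groups came from mice with bilateral spared nerve injury, in which branches of the sciatic nerve are cut and one is spared, and the sham groups from mice with the same surgery but an untouched nerve. All mice were female C57BL/6J operated at 8 weeks of age, with tissue taken 30 days after surgery and no transgene or drug in any group. Each group had 2 pools of 10 mice, and each pool was lysed once and divided into a poly(A)+ mRNA library and a ribosome footprint library (mRNA fragments protected by ribosomes), which gave 16 libraries in 8 groups.

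Neuropeptides are cut from larger precursors, stored in dense-core vesicles and released from neurons to act on G protein-coupled receptors. Galanin (Gal) and neuropeptide Y (Npy) are the classical examples of peptides that sensory neurons with cut axons begin to make, while in the dorsal horn local interneurons also make galanin, neuropeptide Y and neurotensin (Nts). Vip and Adcyap1 encode VIP and PACAP, related peptides that share receptors, and Ucn and Crh encode urocortin and corticotropin-releasing hormone, ligands of the same pair of receptors.

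On GRCm38 (GENCODE M21), Gal lies on chromosome 19 from 3409915 to 3414544 on the minus strand, and Npy on chromosome 6 from 49822710 to 49829507 on the plus strand. Nts lies on chromosome 10 from 102481756 to 102490486 on the minus strand, and Vip on the same chromosome from 5639218 to 5647617 on the plus strand. Adcyap1 lies on chromosome 17 from 93199017 to 93206537 on the plus strand, Ucn on chromosome 5 from 31138063 to 31138829 on the minus strand, and Crh on chromosome 3 from 19693401 to 19695396 on the minus strand. No exon of these genes overlapped an exon of another annotated gene.

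Sequence just upstream of the start sites is shown because most of these genes rose together in the DRG. RefSeq promoters of GRCm38.p6, with 250 bases before and 50 after each start, were found for 6 of the 7 genes, with a pair of starts for Adcyap1, and Crh had none. The letters searched on both strands were the cAMP response element (CRE) TGACGTCA, its shorter form TGACG, which is contained in it, and the AP-1 element TGANTCA. Capitals mark the matches, and positions count back from the RefSeq start.
Gal, chr19:3414545-3414644, minus strand, positions -100 to -1: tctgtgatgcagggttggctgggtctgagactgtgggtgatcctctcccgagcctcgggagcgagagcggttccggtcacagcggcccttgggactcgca
Npy, chr6:49822610-49822709, plus strand, positions -100 to -1: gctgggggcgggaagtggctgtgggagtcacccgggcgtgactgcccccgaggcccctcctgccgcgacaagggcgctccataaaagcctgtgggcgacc
Nts, chr10:102490519-102490668, minus strand, from position -250: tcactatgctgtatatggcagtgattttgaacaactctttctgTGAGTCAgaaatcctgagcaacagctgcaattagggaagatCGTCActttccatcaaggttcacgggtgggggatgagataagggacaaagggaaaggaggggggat
Vip, chr10:5639118-5639217, plus strand, positions -100 to -1: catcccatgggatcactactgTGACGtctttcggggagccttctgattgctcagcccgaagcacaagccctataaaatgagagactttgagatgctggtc
Adcyap1, first start, chr17:93198867-93198966, plus strand, positions -150 to -51: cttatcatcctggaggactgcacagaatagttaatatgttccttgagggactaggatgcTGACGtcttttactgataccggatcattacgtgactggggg
Ucn, chr5:31138896-31138995, minus strand, positions -100 to -1: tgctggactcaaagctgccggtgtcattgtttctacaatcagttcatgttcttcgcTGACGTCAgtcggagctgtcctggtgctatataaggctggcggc

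The full CRE was found in the Ucn promoter, at position -44, and in none of the other 5 genes searched, against 1.79% of all 32851 promoters of the same length. The shorter form was present in 5 of the 6 genes, against 20.8% of all promoters. It began at -166 in Nts, -79 in Vip, -91 from the first start of Adcyap1, -44 and -41 within the CRE of Ucn and 20 bases after the start of Gal, and Npy had none. The AP-1 element was found only in Nts, at -207, against 7.81% of all promoters. A match describes these letters and is not a measured binding site.

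Reads counted in genes ranged from 18176471 to 28553113 in the mRNA libraries and from 6898056 to 21613483 in the footprint libraries. The labelled tissues carried their markers. The 10 sensory neuron markers summed to 6000 to 6440 CPM (read counts scaled to library size with TMM factors) in the DRG mRNA libraries and to 673 to 749 CPM in the spinal cord, while 8 markers of spinal cord neurons summed to 15.9 to 27.6 CPM in the DRG and to 1250 to 1310 CPM in the spinal cord. Skeletal muscle markers differed between the surgeries in the DRG, where 9 of 10 rose, against 17.1% of all genes, and their sum was 142 and 143 CPM in SNI pools, against 52.2 and 55.5 CPM in sham pools. Oligodendrocyte markers went the other way, with 29.1 and 29.8 CPM in SNI DRG and 60.1 and 56.6 CPM in sham DRG, and 4 of the 5 tested fell, against 14.9% of all genes. Macrophage markers summed to 124 and 123 CPM in SNI DRG, against 88.1 and 84.7 CPM in sham DRG, and 4 of 6 rose, against the same 17.1%, while DESeq2 called 2. The part of these cells in the changes of the peptide genes was not tested. In bulk tissue, more cells that make a peptide and more RNA per cell cannot be told apart.

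In the DRG, mRNA of all 5 peptide genes with enough reads for the test rose after SNI. Npy and Ucn rose most, Gal and Nts were next, and Adcyap1 rose least. A gene was tested when its 4 libraries held at least 32 reads each on average, and it was called at an adjusted p under 0.05 (edgeR quasi-likelihood test, Benjamini-Hochberg over 14494 genes). Across all tested genes 17.1% were called higher, so the count alone is to be read against that share. Ucn reached the minimum only through its SNI pools, so that an increase was built into its being tested. Of the other 4 genes Gal, Npy and Nts rose over 2-fold, against 0.552% of all genes called and over 2-fold higher. Both SNI pools lay above both sham pools for 35% of all genes.

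**Figure D1:**
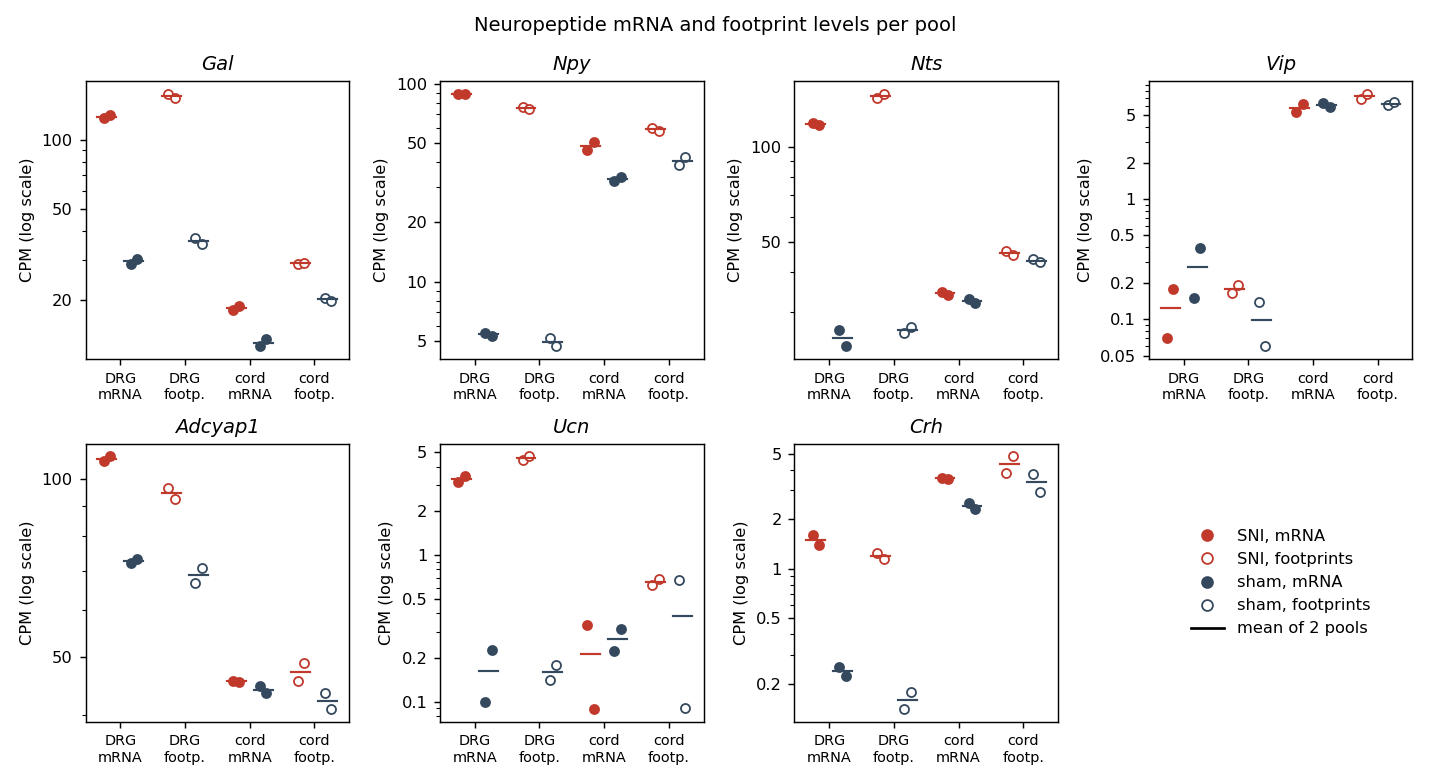
Normalized CPM of each gene (log axis, its own range in each panel) in every pool, with SNI left of sham for DRG mRNA, DRG footprints, spinal cord mRNA and spinal cord footprints. Points are single pools, filled for mRNA and open for footprints, and bars are means of 2 pools. In the DRG, both SNI pools lay above both sham pools for every gene except Vip mRNA, whose pools held 2 to 7 reads.

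Galanin, which acts on the receptors Galr1, Galr2 and Galr3, had 3544 and 2862 Gal mRNA reads in the SNI pools of DRG, against 577 and 541 in the sham pools. Gal mRNA averaged 126 ± 2.79 CPM in SNI DRG and 29.6 ± 0.917 CPM in sham DRG (SD, n = 2 each). The groups lay far apart and the pools of a group close together. The log2 fold change was 2.09 (standard error, SE, 0.0393; adjusted p = 8.61e-24). Each SE was derived from the edgeR F statistic and can lie below counting error. Gal ranked 20th from the top among all tested genes by log2 fold change.

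Neuropeptide Y, ligand of the Y receptors, changed more. Npy had 88.7 and 89.0 CPM in SNI DRG, against 5.52 and 5.31 CPM in sham DRG. This was a log2 fold change of 4.03 (SE 0.0589, adjusted p = 3.57e-26), the 4th largest increase in the DRG. The ratio was 16.4, with a 95% interval of 14.2 to 18.9 that covers counting error only. Even so, this interval is wider than the SE implies. Npy made up 20.0% and 19.8% of the reads of the 7 genes in SNI pools, against 4.14% and 3.99% in sham pools.

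Nts, the precursor gene of neurotensin, had 119 and 117 CPM in SNI DRG, against 26.3 and 23.3 CPM in sham DRG. The log2 fold change was 2.25 (SE 0.0428, adjusted p = 1.01e-23), close to that of Gal.

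PACAP, encoded by Adcyap1, was the peptide gene of this set with the most reads in sham ganglia. Adcyap1 had 107 and 109 CPM in SNI DRG, against 72.1 and 73.3 CPM in sham DRG, and rose by a log2 fold change of 0.57 (SE 0.0319, adjusted p = 1.75e-13). The increase was small beside those of Gal, Npy and Nts, and it was not called in a test against a 1.5-fold change. Adcyap1 took 24.1% and 24.3% of the reads of the 7 genes in SNI pools, against 54.1% and 55.1% in sham pools.

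Urocortin mRNA was near the floor in sham ganglia. Ucn had 89 and 77 reads in the SNI pools, or 3.12 and 3.45 CPM, against 2 and 4 reads in the sham pools, or 0.1 and 0.224 CPM. The log2 fold change was 4.31 (SE 0.336, adjusted p = 1.33e-10), the 2nd largest in the DRG, and it ranged from 3.83 to 4.94 when single lysates were left out. The ratio was 20.6 with a counting interval of 9.26 to 56.9, which is wider than the SE implies.

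Crh was measured with fewer reads than the minimum. It had 46 and 31 reads in SNI DRG, or 1.61 and 1.39 CPM, against 5 and 4 reads in sham DRG, or 0.251 and 0.224 CPM. In a fit with no minimum it rose by a log2 fold change of 2.64 (SE 0.377, adjusted p = 1.69e-09 from edgeR), and the ratio of 6.36 had a counting interval of 3.18 to 14.4.

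Vip had too few reads to compare. It had 2 and 4 reads in SNI DRG, against 3 and 7 reads in sham DRG, and the log2 fold change without a minimum was -1.13 (SE 0.826, adjusted p = 0.541 from edgeR). The counting interval of the ratio, 0.133 to 1.36, includes no change, and a difference was not detectable at this depth. Neither an increase nor a decrease of Vip could be told in these ganglia.

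The 7 genes together summed to 443 and 449 CPM of mRNA in SNI DRG and to 133 and 133 CPM in sham DRG. Per kilobase of annotated exon, which allows genes to be compared, the order of mRNA levels in SNI DRG was Gal with 177 ± 3.92, Npy with 157 ± 0.424, Nts with 94.4 ± 0.840, Adcyap1 with 51.8 ± 0.720, Ucn with 6.52 ± 0.461, Crh with 1.14 ± 0.120 and Vip with 0.0366 ± 0.0227 CPM per kb (SD, n = 2). In sham DRG it was Gal with 41.6 ± 1.29, Adcyap1 with 34.8 ± 0.406, Nts with 19.9 ± 1.72, Npy with 9.57 ± 0.259, Ucn with 0.321 ± 0.173, Crh with 0.180 ± 0.0146 and Vip with 0.0796 ± 0.0501 CPM per kb. Npy thus stood 2nd in SNI ganglia and 4th in sham ganglia, while Ucn and Crh in sham ganglia differed by less than the SD of Ucn.

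Neuropeptide Y is also made by sympathetic neurons, and a list of 6 of their markers summed to 104 and 106 CPM in SNI DRG, against 88.8 and 91.2 CPM in sham DRG. Nearly all of it was Th, a gene that a class of sensory neurons expresses too, with 103 and 106 CPM in SNI DRG, against 88.6 and 90.9 CPM in sham DRG. Dbh, the enzyme that makes noradrenaline, had 8 and 7 reads in SNI DRG, against 2 and 2 reads in sham DRG. The 10 sensory neuron markers summed to 6060 and 6000 CPM in SNI DRG, against 6390 and 6440 CPM in sham DRG. Of these, Trpv1, Avil and Prph were called higher in mRNA, against 17.1% of all genes, 6 were called lower, against 14.9%, and Pou4f1 was not called. In footprints 0 of the 10 were called higher, against 8.24% of all genes, and 6 lower, against 7.52%, while DESeq2 called 3. Avil (-0.06) and Prph (-0.05) were among the genes with lower footprints, and DESeq2 called neither. The part of either cell type in the increase of Npy was not tested.

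Ribosome footprints of the same genes rose with the mRNA in the DRG. All 5 tested genes were called higher, against 8.24% of 13038 genes. Ucn again reached the minimum only through its SNI pools, and of the other 4 genes Gal, Npy and Nts rose over 2-fold, against 0.56% of genes. Both SNI pools lay above both sham pools for 27.8% of all genes. Gal footprints were 159 and 153 CPM in SNI DRG, against 37.5 and 35.2 CPM in sham DRG, a log2 fold change of 2.11 (SE 0.0496, adjusted p = 1.1e-63). Npy footprints were 76.4 and 74.9 CPM in SNI DRG, against 5.18 and 4.71 CPM in sham DRG, a log2 fold change of 3.95 (SE 0.0893, adjusted p = 2.84e-65). Both genes kept their groups far apart in footprints as in mRNA.

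Nts footprints were 142 and 147 CPM in SNI DRG, against 25.7 and 26.8 CPM in sham DRG, a log2 fold change of 2.45 (SE 0.0554, adjusted p = 2.84e-65). Ucn had 53 and 98 footprints in SNI DRG, against 1 and 3 in sham DRG, a log2 fold change of 4.71 (SE 0.397, adjusted p = 8.93e-19). Adcyap1 footprints were 96.4 and 92.4 CPM in SNI DRG, against 66.7 and 70.7 CPM in sham DRG, a log2 fold change of 0.44 (SE 0.0510, adjusted p = 5.21e-12). The Adcyap1 call was lost with a fixed coefficient of variation of 0.1 (adjusted p = 0.142) and in the test against 1.5-fold (adjusted p = 1).

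Crh and Vip footprints were under the read minimum. Crh had 15 and 24 footprints in SNI DRG, against 1 and 3 in sham DRG, a log2 fold change of 2.77 without a minimum (SE 0.555, adjusted p = 6.54e-05 from edgeR). DESeq2 did not call it (adjusted p = 0.251), nor did the fit without sham replicate 2 (adjusted p = 0.0507). Vip had 2 and 4 footprints in SNI DRG, against 1 and 1 in sham DRG, a log2 fold change of 1.05 with an adjusted p of 0.811 from edgeR.

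**Figure D2:**
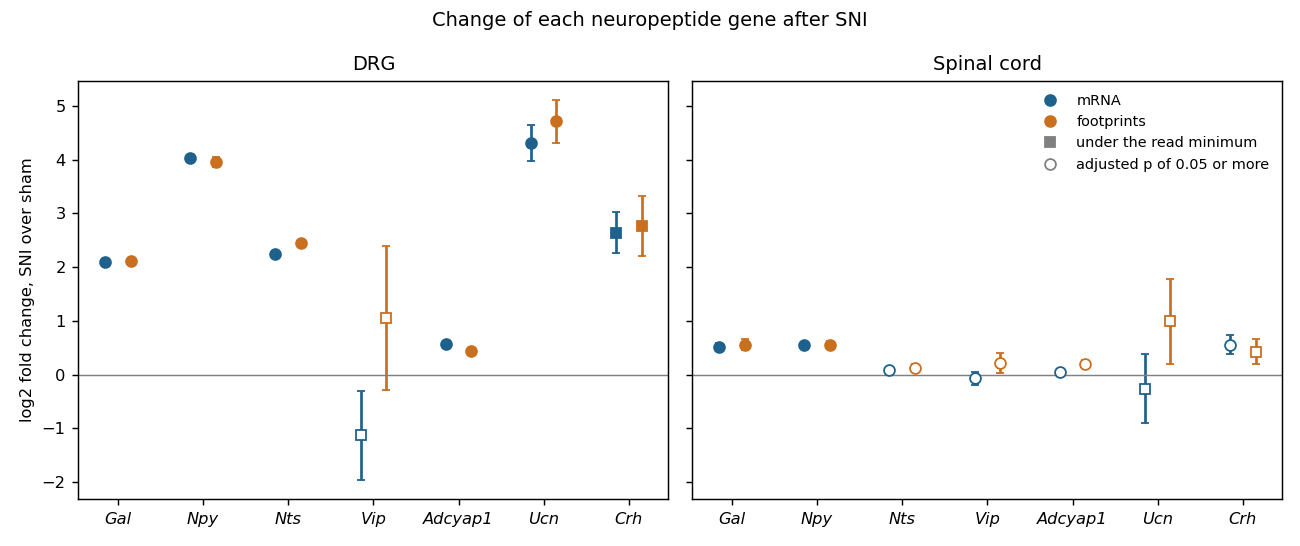
Log2 fold change of SNI over sham for each gene, in mRNA and in footprints, for DRG (left) and spinal cord (right), with bars of 1 standard error. These bars are derived from the edgeR F statistic and can be shorter than counting error. Squares are genes under the read minimum, read from a fit without it, and open symbols have an adjusted p of 0.05 or more. In the DRG the pairs of mRNA and footprint values lie close together for Gal, Npy, Nts and Adcyap1, and in the spinal cord Gal and Npy alone are filled.

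Translation efficiency (TE), the footprint level over the mRNA level of the same lysate, answers whether footprints moved beyond mRNA. None of the 5 tested genes was called in the DRG by edgeR, against 6.84% of 12710 genes called in either direction, with 2 of the 5 at an unadjusted p under 0.05 and 0 called by DESeq2. Log2 TE of Gal was 0.35 and 0.26 in SNI lysates and 0.37 and 0.22 in sham lysates, so the groups overlapped, and the change of 0.02 had an approximate 95% interval of -0.13 to 0.17. Log2 TE of Npy was -0.22 and -0.25 in SNI lysates and -0.08 and -0.17 in sham lysates, with a change of -0.10 and an interval of -0.45 to 0.25. The large increases of Gal and Npy mRNA were thus met by footprint increases of like size, within these intervals.

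Nts and Adcyap1 were the pair at an unadjusted p under 0.05. Log2 TE of Nts was 0.26 and 0.33 in SNI lysates and -0.03 and 0.20 in sham lysates, a change of 0.18 (SE 0.0853, adjusted p = 0.211). Log2 TE of Adcyap1 was -0.15 and -0.24 in SNI lysates and -0.11 and -0.05 in sham lysates, a change of -0.13 (SE 0.0618, adjusted p = 0.216). These changes ran in opposite directions and did not pass the adjusted threshold. The TE change of Ucn, 0.57, had an interval of -1.31 to 2.45, since its sham lysates held 1 and 3 footprints and 2 and 4 mRNA reads.

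**Figure D3:**
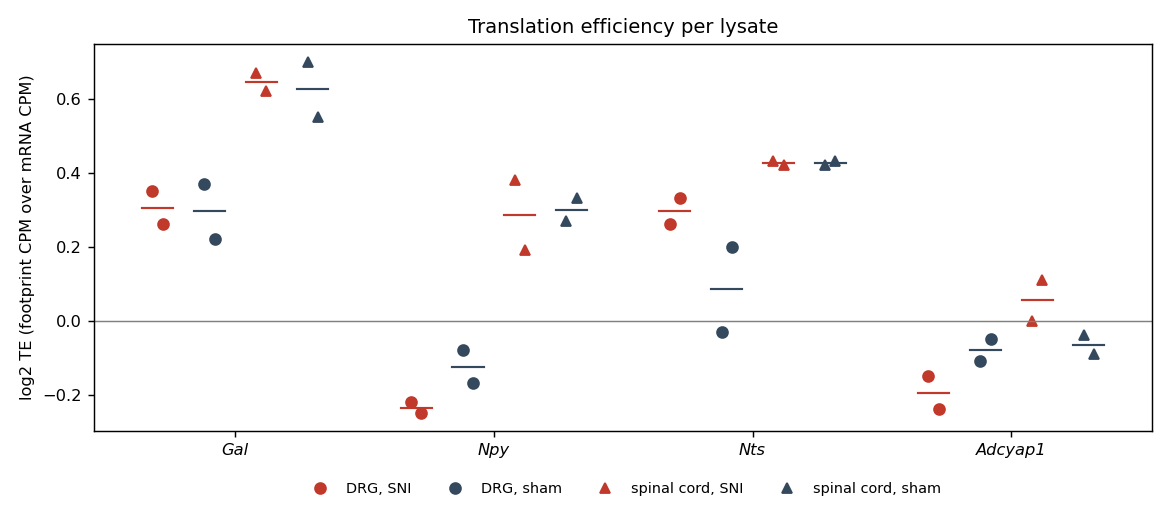
Log2 TE of Gal, Npy, Nts and Adcyap1 in each lysate, with DRG (circles) left of spinal cord (triangles) and SNI left of sham, and bars at the mean of 2 lysates. For Gal, Npy and Nts all 4 DRG lysates lie below all 4 spinal cord lysates. For Nts the mean of the SNI lysates in the DRG, 0.29, lies nearer to the spinal cord means of 0.42 and 0.43 than to the sham mean of 0.09. That sham mean rests on lysates at -0.03 and 0.20, and the change was not called by edgeR (adjusted p = 0.211).

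TE of the same gene was lower in the DRG than in the spinal cord for several peptides. For Gal, log2 TE averaged 0.31 ± 0.07 in SNI and 0.30 ± 0.11 in sham DRG, against 0.65 ± 0.04 in SNI and 0.63 ± 0.11 in sham spinal cord (SD, n = 2). For Npy it averaged -0.23 ± 0.02 in SNI and -0.13 ± 0.07 in sham DRG, against 0.28 ± 0.13 in SNI and 0.30 ± 0.04 in sham spinal cord. For Nts it averaged 0.29 ± 0.04 in SNI and 0.09 ± 0.16 in sham DRG, against 0.42 ± 0.01 in SNI and 0.43 ± 0.01 in sham spinal cord. All 4 DRG lysates lay below all 4 spinal cord lysates for these 3 genes, as for 17.4% of 11332 genes, while for Adcyap1 the tissues overlapped. The values rest on normalization across both tissues and no test was made.

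In the spinal cord, Gal and Npy mRNA rose and the other peptide genes were not called. Both called genes changed by less than 1.5-fold. The 2 called genes of 6 tested stand against 1.81% of 14723 genes called higher. Among all genes 267 were called higher and 337 lower with TMM, 336 and 250 with library sizes alone, and 298 and 607 in a fit with the DRG libraries, so the direction of small changes in this tissue depends on the scaling, but Gal and Npy stayed called in the same direction in these 3 fits. Their calls were lost when a coefficient of variation of 0.1 was fixed, with an adjusted p of 1 for Gal and 0.265 for Npy, and in the test against 1.5-fold.

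Npy had 46.2 and 50.8 CPM in SNI spinal cord, against 32.3 and 33.9 CPM in sham spinal cord. This was a log2 fold change of 0.56 (SE 0.0527, adjusted p = 6.67e-13). Gal had 18.1 and 18.9 CPM in SNI spinal cord, against 12.6 and 13.6 CPM in sham spinal cord, a log2 fold change of 0.51 (SE 0.0769, adjusted p = 2.05e-06). The SNI pools of both genes lay above the sham pools, as for 22.1% of all tested genes.

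Crh lay close to the threshold. It had 3.57 and 3.52 CPM in SNI spinal cord, against 2.5 and 2.31 CPM in sham spinal cord, a log2 fold change of 0.56 (SE 0.177, adjusted p = 0.0542). The adjusted p was 0.0405 in a fit with all 8 mRNA libraries and 1 with DESeq2. Both SNI pools of Crh lay above both sham pools, as for 22.1% of all tested genes. It had 85 and 79 reads in SNI pools, against 68 and 52 in sham pools.

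Nts, which rose in the DRG, had 34.6 and 34.0 CPM in SNI spinal cord, against 32.9 and 31.9 CPM in sham spinal cord, a log2 fold change of 0.09 (SE 0.0553, adjusted p = 0.429). Adcyap1 had 45.6 and 45.5 CPM in SNI spinal cord, against 44.7 and 43.5 CPM in sham spinal cord, a log2 fold change of 0.05 (SE 0.0488, adjusted p = 0.647). Vip, best measured in this tissue, had 5.37 and 6.24 CPM in SNI spinal cord, against 6.33 and 5.83 CPM in sham spinal cord, with overlapping groups and a log2 fold change of -0.07 (SE 0.126, adjusted p = 0.849). Ucn had 8 and 2 reads in SNI spinal cord, against 6 and 7 reads in sham spinal cord, which is too few for a comparison.

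Footprints gave the same pair of genes in the spinal cord, with 2 of 5 tested genes called, against 1.13% of 12018 genes called higher. Among all genes 136 were called higher and 133 lower with TMM in this tissue, and 122 and 429 in a fit with the DRG libraries. Npy footprints were 60.0 and 57.9 CPM in SNI spinal cord, against 39.0 and 42.7 CPM in sham spinal cord, a log2 fold change of 0.55 (SE 0.0707, adjusted p = 1.43e-05). Gal footprints were 28.9 and 29.1 CPM in SNI spinal cord, against 20.5 and 19.9 CPM in sham spinal cord, a log2 fold change of 0.56 (SE 0.0968, adjusted p = 0.00085). DESeq2 called Npy (adjusted p = 0.000996) but not Gal (adjusted p = 0.121), and both calls were lost with the fixed coefficient of variation, with an adjusted p of 0.0926 for Npy and 0.233 for Gal, and in the test against 1.5-fold. The footprint log2 fold changes were 0.20 for Adcyap1 (adjusted p = 0.189), 0.12 for Nts (adjusted p = 0.524) and 0.22 for Vip (adjusted p = 0.691), none of which passed. Crh had 31 and 35 footprints in SNI spinal cord, against 28 and 32 in sham spinal cord.

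None of the 5 tested genes changed TE in the spinal cord by edgeR, with 0 at an unadjusted p under 0.05 and 0 called by DESeq2, against 0.244% of 11865 genes called in either direction. The change in log2 TE was 0.06 for Gal, with an interval of -0.19 to 0.31, and 0.01 for Npy, with an interval of -0.17 to 0.19.

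Spinal cord pools also differed in other cells. The 6 macrophage and microglia markers summed to 223 and 229 CPM in SNI spinal cord, against 180 and 177 CPM in sham spinal cord, and 5 motor neuron markers summed to 61.8 and 61.1 CPM in SNI spinal cord, against 96.9 and 95.6 CPM in sham spinal cord. Their part in the small increases of Gal and Npy was not tested. The sensory neuron markers summed to 673 and 706 CPM in SNI spinal cord, against 707 and 749 CPM in sham spinal cord, a sum in which abundant genes weigh most. Of the 6 of these 10 markers with enough reads, 0 were called higher and Nefh was called lower (log2 fold change -0.08), while Avil had 0.79 (adjusted p = 0.102) and, without a read minimum, Prdm12 had 1.19 (adjusted p = 0.168) and Scn10a 0.63 (adjusted p = 0.303). The part of sensory neuron RNA in the increases of Gal and Npy was not tested. Skeletal muscle markers, higher in SNI ganglia, summed to 20.6 and 22.1 CPM in SNI spinal cord, against 27.2 and 27.6 CPM in sham spinal cord.

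The response to SNI was then compared directly between the tissues, as the log2 fold change in the DRG minus that in the spinal cord. In mRNA the response was larger in the DRG for 6 of the 7 genes, against 8.56% of 15660 genes. Ucn reached the minimum here through the SNI pools of the DRG. The difference was 3.48 for Npy (SE 0.0965, adjusted p = 9.06e-34), 2.17 for Nts (SE 0.0733, adjusted p = 7.54e-30) and 1.59 for Gal (SE 0.0904, adjusted p = 3.64e-20). Npy thus rose in both tissues and far more in the DRG, while Nts was called in the DRG alone and the difference itself was called.

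Adcyap1 differed by 0.53 (SE 0.0577, adjusted p = 4.89e-10), Ucn by 4.59 (SE 0.820, adjusted p = 3.29e-05) and Crh by 2.09 (SE 0.454, adjusted p = 0.000605). Crh entered this test through its spinal cord reads, since it was under the minimum in the DRG. The Adcyap1 call was lost with a fixed coefficient of variation of 0.1 (adjusted p = 0.743) and in the test against 1.5-fold. The Crh call was lost in the test against 1.5-fold (adjusted p = 0.0544). Vip differed by -1.05, with an interval of -2.48 to 0.38 (adjusted p = 0.38).

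In footprints 6 genes were tested, and Ucn reached the minimum only through the SNI pools of the DRG, where it was high. The difference was called for 4 of the 6, Ucn included, against 5.17% of 13546 genes. It was 3.44 for Npy (SE 0.131, adjusted p = 3.87e-23), 2.37 for Nts (SE 0.0929, adjusted p = 8.02e-23) and 1.59 for Gal (SE 0.114, adjusted p = 4.4e-14). These lay close to the mRNA differences. The Ucn difference of 3.72 (SE 1.07, adjusted p = 0.0221) was 1.99 and no longer called without spinal cord sham replicate 1, which held 5 of the 6 footprints of that group, and it was also lost without DRG sham replicate 2 (3.96), without DRG SNI replicate 2 (3.61) and with DESeq2 (adjusted p = 0.0698). Adcyap1 missed the threshold with a difference of 0.27 (SE 0.0892, adjusted p = 0.0543).

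In sham mice, peptide genes differed in level between the tissues, as most genes did. Of 6 tested genes, 2 were called higher in the DRG, against 38.2% of 14706 genes, and 4 lower, against 43.9% of genes. Gal mRNA was 28.9 and 30.2 CPM in sham DRG, against 12.6 and 13.6 CPM in sham spinal cord, a log2 fold change of 1.19 (adjusted p = 2.4e-48). Adcyap1 was 72.1 and 73.3 CPM in sham DRG, against 44.7 and 43.5 CPM in sham spinal cord, a log2 fold change of 0.73 (adjusted p = 1.63e-33). Npy was lower in the DRG by a log2 fold change of -2.60 (adjusted p = 1.24e-152), Vip by -4.49 (adjusted p = 4.94e-56), Crh by -3.30 (adjusted p = 6.11e-19) and Nts by -0.38 (adjusted p = 2.02e-07).

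The order of mRNA levels per kilobase in sham spinal cord was Npy with 58.5 ± 1.98, Nts with 26.0 ± 0.594, Adcyap1 with 21.1 ± 0.424, Gal with 18.4 ± 0.936, Crh with 1.82 ± 0.102, Vip with 1.79 ± 0.105 and Ucn with 0.528 ± 0.127 CPM per kb (SD, n = 2). Crh and Vip differed by less than their SD. After SNI, Npy mRNA was 157 ± 0.424 CPM per kb in the DRG, against 85.6 ± 5.70 CPM per kb in the spinal cord, the reverse of the order in sham mice, where it was 9.57 ± 0.259 CPM per kb in the DRG. Nts mRNA also changed its order, with 94.4 ± 0.840 CPM per kb in SNI DRG, against 27.5 ± 0.394 CPM per kb in SNI spinal cord.

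Receptors and binding proteins of these peptides had smaller log2 fold changes than Gal, Npy, Nts and Ucn. Of 16 such genes, 8 had enough reads in DRG mRNA, of which 3 rose and 2 fell, against 17.1% and 14.9% of all genes, and their median log2 fold change was 0.10. Npy1r, a Y receptor, had 49.1 and 47.9 CPM in SNI DRG, against 35 and 34.3 CPM in sham DRG, a log2 fold change of 0.48 (adjusted p = 2.09e-09), and its footprints rose by 0.63 (adjusted p = 4.56e-18). Npy2r, the Y receptor found on endings of sensory neurons, had 30.7 and 32.5 CPM in SNI DRG, against 24.0 and 24.7 CPM in sham DRG, a log2 fold change of 0.37 (adjusted p = 1.1e-05), and its footprints rose by 0.44 (adjusted p = 2.62e-09). Npy5r had 29 and 26 mRNA reads in SNI DRG, against 7 and 10 in sham DRG, a log2 fold change of 1.26 without a read minimum (adjusted p = 0.00763, not called with DESeq2 or when sham replicate 1 or SNI replicate 2 was left out), but its footprints had -0.34 (adjusted p = 0.766), and Npy4r had 4 to 9 mRNA reads in each pool. The mRNA calls of Npy1r and Npy2r were lost with a fixed coefficient of variation of 0.1 (adjusted p = 0.0703 for Npy1r and 0.337 for Npy2r) and in the test against 1.5-fold.

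Sort1, encoding sortilin, which binds neurotensin, rose by a log2 fold change of 0.13 in mRNA (adjusted p = 0.0186), a call lost with DESeq2 (adjusted p = 0.387) and when SNI replicate 1 (0.06) or either sham replicate (0.12 and 0.11) was left out. Ntsr2, a neurotensin receptor of astrocytes, had 6.70 and 6.05 CPM in SNI DRG, against 10.6 and 9.34 CPM in sham DRG, and fell by a log2 fold change of -0.64 (adjusted p = 0.000104). Adcyap1r1, the PACAP receptor, had 7.26 and 7.35 CPM in SNI DRG, against 9.63 and 10.2 CPM in sham DRG, with a log2 fold change of -0.44 (adjusted p = 0.00257, and 0.0626 with DESeq2). In sham mice Ntsr2 and Adcyap1r1 mRNA were lower in the DRG than in the spinal cord, by log2 fold changes of -4.61 and -4.84. The 5 astrocyte markers summed to 73.1 and 68.6 CPM of mRNA in SNI DRG, against 104 and 100 CPM in sham DRG. Of these 5, 3 were called lower, against 14.9% of all genes, Aldh1l1 was called higher (log2 fold change 0.48) and Gjb6 was not called. Their footprints summed to 64.7 and 61 CPM in SNI DRG, against 67 and 62.3 CPM in sham DRG. Spinal cord neuron markers summed to 17.1 and 15.9 CPM of mRNA in SNI DRG, against 27.6 and 24.5 CPM in sham DRG. The part of either cell type in the changes of Ntsr2 and Adcyap1r1 was not tested. Footprints of Ntsr2 fell by a log2 fold change of -0.84 (adjusted p = 2.4e-05) and those of Adcyap1r1 by -0.59 (adjusted p = 0.00786, and 0.358 with DESeq2). TE of Sort1 had a log2 change of -0.22 (adjusted p = 0.026, and 0.999 with DESeq2), and it was not called when any single lysate was left out.

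In spinal cord mRNA none of 12 tested receptor genes was called by edgeR, with 1 at an unadjusted p under 0.05 and 0 called by DESeq2, where 4.1% of all genes were called by edgeR in either direction.

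Of 20 further neuropeptide precursor genes 9 had enough reads in DRG mRNA. Among these 0 were called higher, against 17.1% of all genes, and 3 fell, against 14.9%, with a median log2 fold change of -0.10. Tac2, under the read minimum, had a log2 fold change of -1.02 in the fit without it (SE 0.29, adjusted p = 0.00934 from edgeR). Its footprints had -1.82 and were not called (adjusted p = 0.0651 from edgeR). Calca, the precursor gene of CGRP, had 1550 and 1560 CPM in SNI DRG, against 1700 and 1710 CPM in sham DRG, a log2 fold change of -0.13 (adjusted p = 9.99e-15). Tac1, the precursor gene of substance P, had a log2 fold change of -0.12 (adjusted p = 3.71e-05), and Nmb, of neuromedin B, one of -0.18 (adjusted p = 7.55e-06). Their footprints were also called lower, against 7.52% of all genes, by log2 fold changes of -0.10 for Calca, -0.15 for Tac1 and -0.14 for Nmb (adjusted p = 0.31 for Nmb with DESeq2). The calls of Calca, Tac1 and Nmb were lost with the fixed coefficient of variation and in the test against 1.5-fold, and in footprints those of Tac1 (without either SNI replicate) and Nmb (without sham replicate 2 or SNI replicate 2) were also lost when 1 lysate was left out. In spinal cord mRNA none of 16 tested precursor genes was called by edgeR, with 2 at an unadjusted p under 0.05 and 0 called by DESeq2, against the same 4.1% of all genes.

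**Figure D4:**
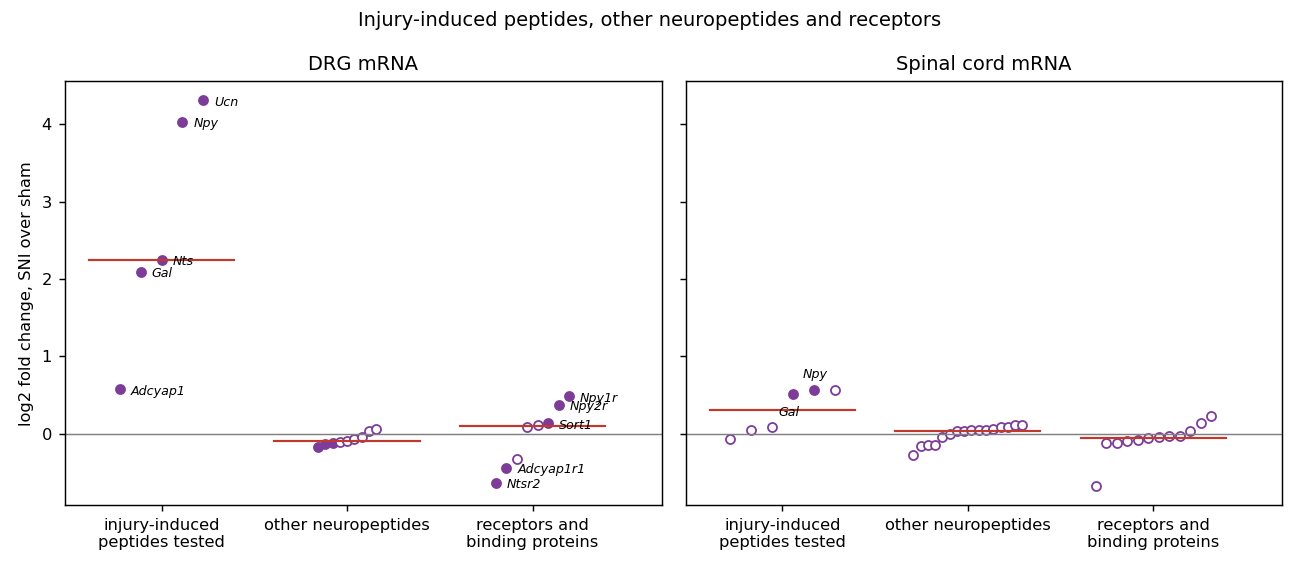
Log2 fold change of SNI over sham in mRNA for the injury-induced peptides with enough reads, other neuropeptide precursors, and receptors and binding proteins, with DRG in the left panel and spinal cord in the right. Points are genes, filled at an adjusted p under 0.05, and red lines are medians. In the DRG the median is 2.25 for the injury-induced peptides (Ucn included), -0.10 for other neuropeptides and 0.10 for receptors. The lists were chosen with earlier results of these data known, so the medians are a description and not a test.

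Of the 5 peptide genes of the same families (Galp, Pyy, Ppy, Ucn2 and Ucn3), none had enough reads in the DRG. Ucn2, a relative of urocortin, had 10 and 6 mRNA reads in SNI DRG, against 3 and 3 in sham DRG, and 4 and 9 footprints in SNI DRG, against 0 and 0 in sham DRG. In the fit without a read minimum edgeR called the Ucn2 footprints higher (adjusted p = 0.018), a call lost with DESeq2 and when any single lysate was left out, and its mRNA was not called (adjusted p = 0.55).

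The genes whose pattern over the 8 mRNA libraries was nearest to each peptide were found by the Euclidean distance of gene-centered log2 CPM among 14535 protein-coding genes, as a description. The nearest to Npy were Cckbr, the cholecystokinin B receptor (distance 1.81), the growth factor Fgf3 (1.89) and Hrk, a promoter of cell death (2.18). Cckbr had 18.6 and 17.4 CPM in SNI DRG, against 1.66 and 1.34 CPM in sham DRG, and it also stood near Crh (1.23), after the homeobox gene En1 (0.80) and the endopeptidase gene Ecel1 (1.19). The nearest to Ucn were Cyp26a1, which degrades retinoic acid (2.28), Gal itself (2.78) and Ckm (2.80).

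The nearest to Gal were Tnni2 (0.76), Loxl2 (0.76) and Ckm (0.81), and Tnni2 and Ckm are skeletal muscle genes. Ckm had 19.9 and 19.1 CPM in SNI DRG, against 4.92 and 6.09 CPM in sham DRG, a change in the direction of Gal, and its part was not tested. The nearest to Nts were Star (0.89), Glis3 (0.92) and Rin1 (1.03), those nearest to Adcyap1 were C3ar1 (0.17), Rras2 (0.18) and Tgif1 (0.19), and those nearest to Vip were Slc10a4 (0.69), Nxph2 (0.73) and Klhl14 (0.81), which like Vip had few reads in the DRG.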

How the data were processed

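By the submitters' notes and the paper's methods, the authors used Bowtie 1.1.2 to take out rRNA and tRNA fragments, STAR 2.5.2b for alignment to GRCm38.p5 and HTSeq for read counts of genes. The strand setting is not given in the sources used here. The deposited table holds counts, which were analysed here, and RPKM values and a TE ratio of RPKM that the authors computed. These 2 were not used. The deposited RPKM rest on other gene lengths, such as 98 bases for Npy against 566 exonic bases. For each gene checked the implied length was the same in all libraries checked, so it cancels in the deposited TE ratio. TE was computed here from the counts.

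Counts were normalized by TMM and tested with edgeR 4.0.16 in R 4.3.3 (quasi-likelihood, adjusted p threshold 0.05, at least 128 reads over 4 libraries), SNI against sham in each tissue. The TE test was a surgery-by-assay interaction that kept the lysates as terms, and the response difference was a surgery-by-tissue interaction. Printed CPM used TMM over 8 libraries of an assay, and log2 TE added 0.5 reads. Standard errors are the absolute log2 fold change over the square root of the edgeR F statistic. They can fall below counting error, as for Npy and Ucn in DRG mRNA, and then understate the uncertainty. Intervals of differences are the estimate with 1.96 of these standard errors. The main edgeR test of each comparison was tried on simulated data, and the alternatives were not. Alternatives were DESeq2 1.42.0, limma 3.58.1 on log2 TE, library sizes alone, no minimum, a fixed coefficient of variation of 0.1, a test against 1.5-fold, a replicate block, 1 fit of 8 libraries, no lysate terms and leaving out each lysate. All 7 genes and all list members that were called were to be named. The genes, lists and motifs were chosen with earlier results of these data known. The p-values rest on the spread between pools, 2 a group, which edgeR estimates with information shared over all tested genes. Spread among single mice is averaged within pools of 10 and was not measured. Figures were drawn with matplotlib 3.10.9.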

Additional observations from a re-analysis of the deposited data

Results flagged for a closer look

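The change after SNI differed between DRG and spinal cord for most of the peptide genes, by a test of the difference itself (edgeR interaction of surgery and tissue). In mRNA the log2 fold change was larger in the DRG by 4.59 for Ucn, 3.48 for Npy, 2.17 for Nts, 2.09 for Crh, 1.59 for Gal and 0.53 for Adcyap1. In footprints it was larger by 3.72 for Ucn, 3.44 for Npy, 2.37 for Nts and 1.59 for Gal, and by 2.35 for Crh in the fit without a read minimum (adjusted p = 0.0145, 0.644 with DESeq2, and lost without 6 of the 8 lysates in turn). The mRNA calls of Adcyap1 and Crh were lost in the test against 1.5-fold, and that of Adcyap1 also with a fixed coefficient of variation of 0.1. Ucn was tested in both assays only through the SNI pools of the DRG, where it was high. Groups of 2 pools are too small for a search for single outlying libraries.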

How the results depend on the processing

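Over 785 repeats of member results under other settings, 738 kept their result, 32 lost a call and 3 gained one. Kept meant the same direction and side of the threshold. For mean log2 TE with other amounts of added reads, which has no threshold, it meant a move within the SD of the lysates. A further 2 moved by over 1 SD, and 10 changed sign, each of the 10 from a change that was not called. All 5 DRG mRNA and 5 DRG footprint calls, the 6 calls of the mRNA response and the 6 of the sham comparison stayed at these counts when single lysates were left out, and the 4 calls of the footprint response ranged from 3 to 4. The 2 called genes in spinal cord mRNA became 0 with a fixed coefficient of variation of 0.1 and 0 in the test against 1.5-fold. The 2 in spinal cord footprints became 1 with DESeq2, 0 with the fixed coefficient and 0 against 1.5-fold. With single lysates left out, the TE change of Gal ranged from -0.06 to 0.09 in the DRG (-0.02 without SNI replicate 1) and from -0.02 to 0.12 in the spinal cord, and in the spinal cord that of Npy from -0.10 to 0.09 (-0.02 without sham replicate 1, and -0.01 without lysate terms) and that of Crh from -0.34 to 0.01. Spinal cord mRNA of Vip ranged from -0.17 to 0.04 and of Ucn from -1.50 to 0.36, and Ucn footprints there from -0.01 to 2.69. The cause was not tested. Deviations of same-numbered pools correlated at 0.04 and 0.21 in DRG mRNA and footprints and at 0.00 and -0.03 in the spinal cord, and the labels give no link between same-numbered pools, so the numbers were not taken as pairs. A replicate block gave 5 calls in DRG mRNA, 3 in spinal cord mRNA and 5 in the footprint response, adding Crh (0.56, adjusted p = 0.0358) and Adcyap1 (0.27, adjusted p = 0.0405), and changed no other call. The counts over all genes behind the percentages depend strongly on the tool. DRG mRNA had 2485 genes called higher and 2157 lower with edgeR but 928 and 1176 with DESeq2, and DRG footprints 1074 and 980 but 349 and 376. Spinal cord mRNA had 267 and 337 but 39 and 18, and its footprints 136 and 133 but 67 and 24. TE had 418 and 451 in the DRG but 56 and 30, and 20 and 9 in the spinal cord but 11 and 2. The mRNA response had 1341 and 1019 but 368 and 557, and the footprint response 700 and 347 but 162 and 202 (582 and 433 with library sizes alone). With 2 pools a group, few reads limited Ucn, Crh and Vip.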
